A study of Mus musculus with 8 samples.

Results

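The heat shock proteins and chaperonins are the genes that carry mouse symbols of the HSP families (Hspa, Hspb, Hspd, Hspe, Hsph and Hsp90), of the J-domain families (Dnaja, Dnajb and Dnajc) and of the cytosolic chaperonin (Cct2 to Cct8 and Tcp1). They were taken by symbol from the Entrez identifiers of the count table, with 1 pseudogene left out. The rule uses names alone, though it was set with earlier results of these data known. This gave 84 of the 27179 genes listed, of which 75 had enough reads to be tested. The rule is one of names, so it also takes 3 genes that are not chaperones of these families (Hspb11, Hspbp1 and Hspbap1), and these were kept apart as other HSP names.

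Whole primary tumours grown from 4T1.13 cells, a metastatic mammary carcinoma line that derives from BALB/c mice, were profiled by RNA sequencing in BALB/c mice, with 4 vector control (4T1.13-VC) and 4 miR-21 knockdown (4T1.13-miR-21-KD) tumours. Both lines carried the miArrest lentiviral vector with mCherry and hygromycin resistance. In miR-21-KD cells its H1 promoter drives a sequestering RNA against mature miR-21, and in VC cells a scrambled one. Each line was a pool of 6 clones, and the cells of the host carried no vector. The female mice received 100000 cells in the mammary fat pad, and tumours were taken when those of the miR-21-KD line began to regress, on day 14 by the labels and on an earlier day by the study's methods. The comparison asks which chaperone transcripts differed between tumours of the control line and of the line made to sequester miR-21. The microRNA that the vector binds is shown for orientation, with its seed (bases 2 to 8) in capitals. It lies on the minus strand at chr11:86584120-86584141 in GRCm38.p6 (RefSeq).

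mmu-miR-21a-5p: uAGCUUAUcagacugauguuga

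Chaperones bind unfolded proteins and help them to fold, assemble, cross membranes or be degraded. HSP70 proteins do so in cycles of ATP use that J-domain proteins start and that nucleotide exchange factors, the HSP110 proteins among them, end. HSP90 proteins act later, on kinases and steroid receptors among others. Chaperonins are barrels that enclose their substrate, CCT in the cytosol for actin, tubulin and many other proteins, and HSP60 with its lid HSP10 in the mitochondrial matrix. Small HSPs hold unfolded proteins without using ATP. Heat shock factors raise many of these genes through the heat shock element, and the unfolded protein response raises those of the endoplasmic reticulum (ER). Many tumours hold high levels of these proteins.

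The libraries held 12134849 to 13592695 counts on genes, and a count of 0 allows up to 0.221 to 0.245 CPM (a gene's reads relative to the TMM-adjusted total of its library) depending on the tumour, which covers counting error only. The hairpin gene of miR-21, Mir21a, had a count of 0 in all 8 tumours. The vector sequesters the mature RNA, which these libraries of reads on genes did not measure, so the knockdown could not be checked here. Cell type markers moved with the groups. Marker genes of proliferation were lower in 7 of 8 cases, while those of fibroblasts (6 of 7), leukocytes (6 of 11 tested) and adipocytes (8 of 8) were higher. Of 9 epithelial markers 7 were higher, and Krt18 was lower, while Krt8 and Krt18 were read in every tumour (1032, 1212, 1169 and 677 CPM of Krt18 in VC and 188, 689, 563 and 399 CPM in miR-21-KD tumours). The summed levels in VC and miR-21-KD tumours were 1306 to 2264 and 903 to 2016 CPM for the epithelial list, 111 to 443 and 648 to 1789.6 CPM for adipocytes, and 364 to 652 and 557 to 799 CPM for endothelium, of which 2 of 6 markers were higher. These marker counts moved when 1 tumour was left out. Lower proliferation markers then numbered 2 without VC replicate 2 or 3 or miR-21-KD replicate 3 or 4 and 3 without miR-21-KD replicate 1, and without VC replicate 3 the higher markers numbered 3 of 7 for fibroblasts and 3 of 12 for leukocytes. Higher epithelial markers numbered 4 without VC replicate 2 or 3 or miR-21-KD replicate 3 or 4. Krt18 no longer counted as lower without VC replicate 1, 2 or 3 or miR-21-KD replicate 3 or 4. The endothelial count was 1 to 3, and all 8 adipocyte markers were higher in each of the 8 fits. The labels do not say whether each tumour came from its own mouse, and the p-values measure the spread between these tumours. In whole tumours, fewer cells of a type and less RNA per cell cannot be told apart.

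Transcripts of the cytosolic chaperones Hsp90ab1 and Hspa8, of the mitochondrial chaperonin, of 2 of the 8 tested CCT subunits and of the small HSPs Hspb6 and Hspb8 were lower in miR-21-KD tumours. The abundant chaperones of the ER, Hspa5 and Hsp90b1, did not pass the threshold, and 4 members were higher. Of the 75 tested members 22 (29.3%) differed at an adjusted p under 0.05, 4 of them higher and 18 lower (edgeR's quasi-likelihood test with Benjamini-Hochberg adjustment over all 14382 tested genes, as are all adjusted p below). Over all tested genes 39.1% differed, 19.6% higher and 19.5% lower, beside 5.33% and 24% of the members. The median log2 fold change of miR-21-KD over VC was -0.14 among members and -0.01 over all tested genes. All 4 miR-21-KD tumours were below all 4 VC tumours for 21 members (28%, against 18.9% of all tested genes) and above them for 4 (5.33%, against 16.3%). With upper-quartile scaling the split was 6 higher and 15 lower (20% of members), against 21.2% and 17.4% of all tested genes. With the replicate number as a block it was 7 and 21, against 23.0% and 22.1% of all tested genes. Leaving out 1 tumour could change the count of lower members more. Without VC replicate 3 there were 3 higher and 8 lower (10.7% of members), against 9.90% and 10.2% of all tested genes. Without VC replicate 2 or miR-21-KD replicate 3 or 4 there were 9 lower (12%), against 10.8%, 12.2% and 11.1% of all tested genes lower, and 3, 4 and 4 higher, against 11.6%, 13.6% and 12.1%. In these 4 fits the share of members called lower was thus near that of all genes. Without VC replicate 4 there were 14 lower (18.7%), against 2689 of 14599 tested genes. Without VC replicate 1 there were 15 (20%) against 2424 of 14585, and without miR-21-KD replicate 1 there were 12 (16%) against 1975 of 14467.

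Summed over the 84 members, the level was 13508 to 14384 CPM in VC tumours and 8951, 13040.3, 11407 and 10305 CPM in miR-21-KD replicates 1 to 4. The sum is carried by a few abundant genes and is a description. Leaving out the 3 other HSP names, the HSP families and CCT had 9 lower and 1 higher of 32 tested members. The J-domain families had 8 lower and 3 higher of 40. These counts and those by compartment stand beside 19.5% lower and 19.6% higher over all tested genes. By compartment, 1 of 13 members of the ER was lower, 9 of 39 in the cytosol (and 4 higher), 3 of 10 in mitochondria, 2 of 4 in the nucleus and 3 of 6 placed in none of these or not assigned, while none of 3 in vesicles or endosomes passed. Without VC replicate 2 or 3 or miR-21-KD replicate 3 or 4, the lower members numbered 4 or 5 in the HSP families and CCT, 4 or 5 in the J-domain families, 4 or 5 in the cytosol, 1 or 2 in mitochondria, 1 in the nucleus and 1 or 2 of the unassigned. In these fits 10.2% to 12.2% of all tested genes were lower. Without miR-21-KD replicate 2 the lower members numbered 18 in the HSP families and CCT, 17 in the cytosol and 4 in the ER. In that fit 24.3% of all tested genes were lower. The cytosol also had 5 without miR-21-KD replicate 1, and the nucleus 1 without that tumour or VC replicate 4.

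**Figure D1:**
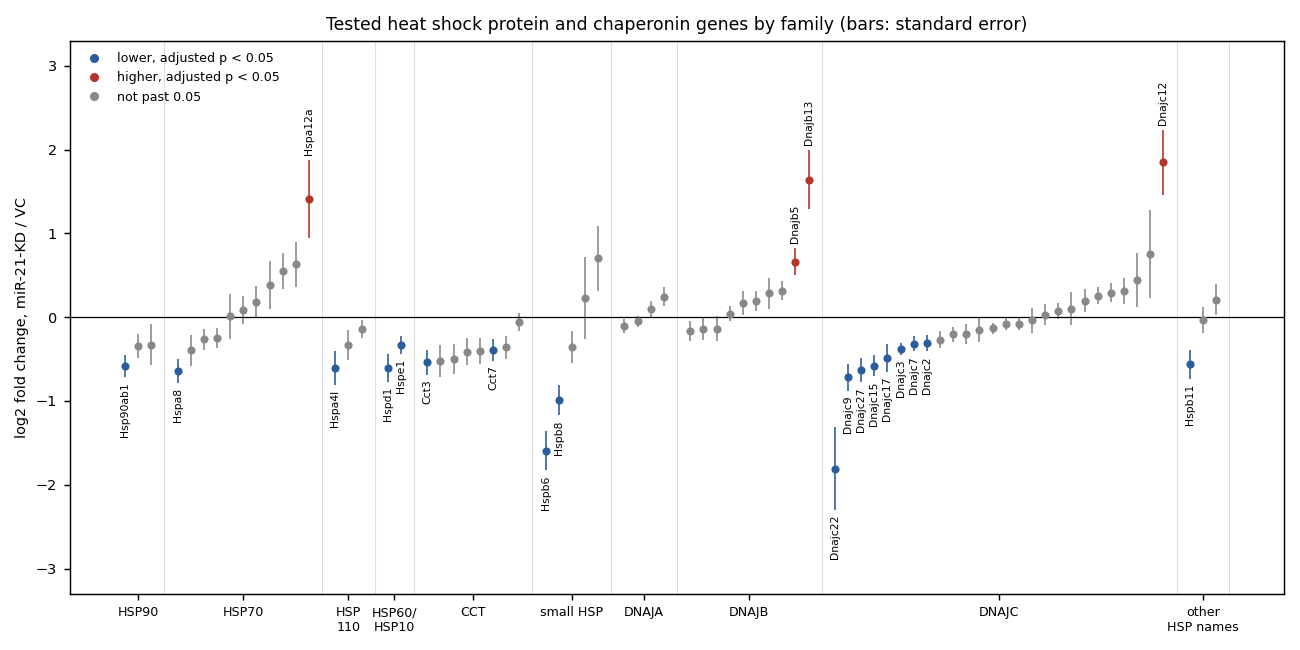
Log2 fold change of miR-21-KD over VC for the 75 tested members (y axis), ordered within families along the x axis, where points are edgeR estimates and bars their standard errors. All 8 CCT points lie below 0, the 4 members called higher (red) lie between 0.66 and 1.85, and the 18 called lower (blue) reach -1.81.

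The cytosolic chaperonin is a ring of different subunits, each from its own gene, and all 8 tested subunit genes had negative log2 fold changes, with a median of -0.41. Of these 8, only Cct3 and Cct7 passed the threshold, beside 19.5% lower over all tested genes. Cct3 counts were 317, 338, 343 and 320.2 CPM in VC replicates 1 to 4 and 177, 294, 223 and 212 CPM in miR-21-KD replicates 1 to 4 (-0.54 ± 0.15, adjusted p = 0.0211; here and below the value after ± is the standard error of the log2 fold change). Cct7 counts were 319, 317, 317 and 308 CPM in VC tumours and 188, 296, 247 and 233 CPM in miR-21-KD tumours (-0.39 ± 0.13, adjusted p = 0.0440). For both genes the groups did not overlap, and miR-21-KD replicate 2 stood nearest to the VC tumours. The adjusted p of Cct3 was 0.0541 to 0.0607 without VC replicate 2 or 3 or miR-21-KD replicate 3 or 4, and that of Cct7 was 0.0607 to 0.102 in each fit without 1 tumour other than miR-21-KD replicate 2.

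Cct5 and Cct4 also had all miR-21-KD tumours below all VC tumours without passing the threshold. Cct5 was at 569, 599.7, 594 and 561 CPM in VC and 266, 552, 419 and 380.1 CPM in miR-21-KD tumours (-0.52 ± 0.20, adjusted p = 0.0605), and Cct4 at 364, 341, 353 and 359.6 CPM and 204, 328, 296 and 276 CPM (-0.36 ± 0.14, adjusted p = 0.0668). The log2 fold changes of Cct2 (-0.50, adjusted p = 0.0539), Cct6a (-0.42, adjusted p = 0.0689) and Tcp1 (-0.41, adjusted p = 0.0660), which encodes the CCT1 subunit, were of similar size, with overlapping groups. With the replicate block 5 subunit genes were lower, as Cct2 (adjusted p = 0.0302), Cct5 (0.0347) and Tcp1 (0.0419) passed as well. Without miR-21-KD replicate 2 there were 7, namely all but Cct8, with adjusted p of 0.00225 to 0.0237. Fits without VC replicate 2 or 3, or without miR-21-KD replicate 3 or 4, called none.

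Cct8 encodes the theta subunit of the same ring and had the smallest log2 fold change of the 8. It was at 289, 278, 269.6 and 255 CPM in VC and 224, 304, 267 and 257 CPM in miR-21-KD tumours, with wide overlap (-0.05 ± 0.11, adjusted p = 0.712). The ratio of Cct8 to the sum of the other 7 subunit genes was 0.105 to 0.114 in VC tumours and 0.128 to 0.167 in miR-21-KD tumours. This ratio was chosen after the values were seen and is given as a description. Per kb of exon, the subunit genes ranged from 46.5 CPM (Cct7) to 210.0 CPM (Cct5) in VC tumours, a 4.51-fold span. The length counts every annotated exon of a gene, 6778 bases for Cct7 and 2766 for Cct5. Part of the span thus comes from the lengths. The paralogues Cct6b and Cct8l1 had at most 7 and 1 counts in any tumour.

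**Figure D2:**
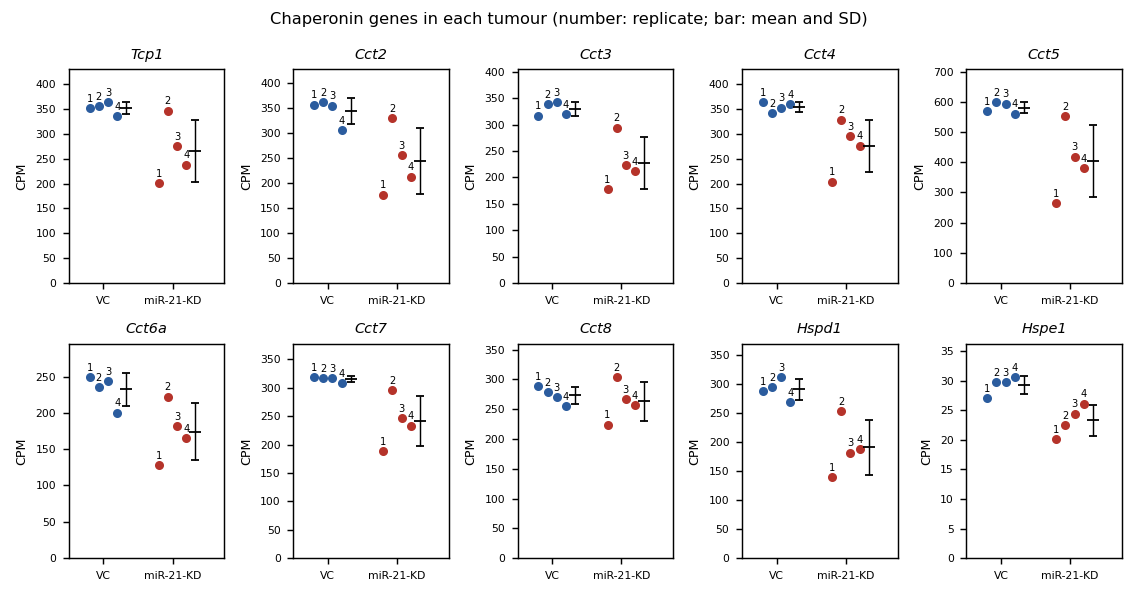
CPM of the 8 CCT subunit genes and of Hspd1 and Hspe1 in each tumour (y axes from 0), with VC tumours in blue, miR-21-KD tumours in red, numbers for replicates and bars for the group mean and SD. In every CCT panel miR-21-KD replicate 1 is the lowest tumour and replicate 2 the highest of its group, and in the Cct8 panel replicate 2 lies above all VC tumours.

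The chaperonin's partners were read from a list of 12 genes, of which 3 were lower and none higher (median log2 fold change -0.32). Over all tested genes 19.5% were lower and 19.6% higher. Pdcl, a phosducin-like protein that works with CCT, was at 59.1, 66.1, 56.3 and 59.5 CPM in VC and 46.9, 46.8, 47.6 and 45.3 CPM in miR-21-KD tumours (-0.37 ± 0.08, adjusted p = 0.00945), and the groups did not overlap. Txndc9, another protein of the phosducin-like family (-0.33, adjusted p = 0.0177), and Pfdn2, a subunit of prefoldin, which hands unfolded actin and tubulin to CCT (-0.44, adjusted p = 0.0227), were also lower. Pdcl passed in all 8 fits without 1 tumour. Txndc9 was past the threshold in 5 of these fits and Pfdn2 in 3, with adjusted p of up to 0.0562 and 0.0648 in the others. With the block 6 of the 12 were lower, and without miR-21-KD replicate 2 there were 8. Only 1 was lower without VC replicate 2 or 3 or miR-21-KD replicate 4.

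The mitochondrial chaperonin genes Hspd1 (HSP60) and Hspe1 (HSP10) both fell. Hspd1 was at 287, 294, 312 and 268 CPM in VC replicates 1 to 4 and 139.6, 253, 182 and 188 CPM in miR-21-KD replicates 1 to 4 (-0.61 ± 0.16, adjusted p = 0.0215). Hspe1 was at 27.1, 29.8, 29.8 and 30.7 CPM and 20.1, 22.5, 24.4 and 26.1 CPM (-0.33 ± 0.11, adjusted p = 0.0380). Neither gene's groups overlapped, and the difference was larger for Hspd1, of which miR-21-KD replicate 1 held the lowest level. The adjusted p of Hspd1 was 0.0531 to 0.0608 without VC replicate 2 or 3 or miR-21-KD replicate 3 or 4. That of Hspe1 was 0.0531 to 0.0909 without VC replicate 2, 3 or 4 or miR-21-KD replicate 1, 2 or 3, and 0.0627 with upper-quartile scaling. Per kb of exon Hspd1 was at 109.9 CPM and Hspe1 at 19.9 CPM in VC tumours, and 72.1 and 15.8 CPM in miR-21-KD tumours.

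Hspd1 and Hspe1 lie head to head on chromosome 1 and share a promoter, with RefSeq starts 216 bases apart. It is shown because both genes it serves were lower and because it holds the heat shock element, alternating units of GAA and TTC with 2 bases between them. The 250 bases before the start of Hspd1 are at chr1:55087933-55088182 on the minus strand of GRCm38.p6 (RefSeq), and the capitals mark 4 alternating units that begin 144 bases before the start.

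Hspd1: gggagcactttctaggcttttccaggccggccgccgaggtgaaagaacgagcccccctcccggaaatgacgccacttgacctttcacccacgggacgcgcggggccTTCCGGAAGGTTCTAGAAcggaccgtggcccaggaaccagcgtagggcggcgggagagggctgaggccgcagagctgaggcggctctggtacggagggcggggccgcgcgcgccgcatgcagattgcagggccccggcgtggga

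On both strands, 3 or more such units in a row were found in the promoter window (250 bases before to 50 after a start) of Hspd1, Hspe1, Hsph1 and Dnajb6, that is 4 of 69 members with a window in the table (5.80%), against 0.662% of 27025 genes. For Hspd1 and Hspe1 it is the same element read from either side. At least 2 units, which include the former, were found in 20 members (29.0%, against 17.0% of genes). Of the 17 tested members with 2 units 5 were lower and none higher (median log2 fold change -0.33), and of the 44 without them 9 were lower and 3 higher (median -0.04), beside 19.5% lower and 19.6% higher over all tested genes. The lower members with 2 units numbered 3 without VC replicate 2 or 3 or miR-21-KD replicate 3, and 9 (with 1 higher) without miR-21-KD replicate 2. The lower members without 2 units numbered 3 or 4 without VC replicate 2 or 3 or miR-21-KD replicate 1, 3 or 4, and the higher ones 5 without miR-21-KD replicate 2. A match of letters is a description and not a binding site.

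Of the other 8 mitochondrial members, 1 was lower. Hspa9 (mortalin), the HSP70 of the matrix that works beside HSP60, was at 484, 438, 521 and 392 CPM in VC and 359, 571, 553 and 466 CPM in miR-21-KD tumours (0.09 ± 0.16, adjusted p = 0.691), and its groups overlapped. The ratio of Hspa9 to Hspd1 was 1.46 to 1.69 in VC tumours and 2.26 to 3.05 in miR-21-KD tumours, a description chosen after the values were seen. Dnajc15, a J-domain protein of the inner mitochondrial membrane, was lower, at 31.9, 31.2, 34.1 and 34.7 CPM in VC and 17.9, 22.6, 21.1 and 26.5 CPM in miR-21-KD tumours (-0.58 ± 0.13, adjusted p = 0.0114), with no overlap and in all 8 fits without 1 tumour. The 6 other J-domain genes placed in mitochondria (Dnaja3, Dnajc4, Dnajc11, Dnajc19, Dnajc28 and Dnajc30) did not pass. Among 7 genes of mitochondrial proteases and related proteins, Yme1l1 was lower (-0.31, adjusted p = 0.0306) and Afg3l2 higher (0.30, adjusted p = 0.0208). These 2 genes passed in 2 and 4 of the 8 fits without 1 tumour, with adjusted p of up to 0.0827 and 0.0693 in the others.

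Of the cytosolic HSP90 genes, the constitutive Hsp90ab1 was lower and the inducible Hsp90aa1 did not pass. Hsp90ab1 was at 2559.9, 2541, 2632 and 2382 CPM in VC replicates 1 to 4 and 1479, 2067, 1622 and 1596 CPM in miR-21-KD replicates 1 to 4 (-0.58 ± 0.13, adjusted p = 0.0126). The groups did not overlap, and the gene passed in all 8 fits without 1 tumour, with adjusted p of at most 0.0423. Hsp90aa1 was at 174, 153, 143 and 127 CPM and 75.1, 177, 128 and 94.5 CPM (-0.33 ± 0.24, adjusted p = 0.302), with miR-21-KD replicate 2 the highest of the 8 tumours and replicate 1 the lowest. Without replicate 2 its adjusted p was 0.0354. Per kb of exon Hsp90ab1 held 843 CPM in VC tumours against 38.0 CPM for Hsp90aa1, and it was the highest of the HSP90, HSP70, HSP60 and CCT members. Of the 50-base stretches of Hsp90aa1, 47.5% also occur in other genes of the annotation, so its counts are uncertain, and for Hsp90ab1 the share is 3.44%.

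Of 15 genes listed as partners of HSP90, which are co-chaperones but for Trap1, the HSP90 of mitochondria, 9 were lower and 2 higher, with a median log2 fold change of -0.42, against 19.5% lower and 19.6% higher over all tested genes. Ahsa1, which speeds the ATP use of HSP90, was at 125, 140.2, 145 and 140.4 CPM in VC and 93.2, 111, 92.8 and 103 CPM in miR-21-KD tumours (-0.46 ± 0.09, adjusted p = 0.00815). Its relative Ahsa2 (-0.64, adjusted p = 0.00663) and the phosphatase Ppp5c, which docks on HSP90 (-0.45, adjusted p = 0.00850), were lower as well. Higher were Cdc37l1, a relative of the kinase adaptor Cdc37 (0.48, adjusted p = 0.00760), and Unc45a, a co-chaperone of myosin folding (0.44, adjusted p = 0.0121). For all 5 the groups did not overlap, and each passed in all 8 fits without 1 tumour. Trap1, named after its values were seen, was among the 9 lower, at 104, 106, 110.3 and 102 CPM in VC and 79.3, 99.7, 84.4 and 91.9 CPM in miR-21-KD tumours (-0.25 ± 0.09, adjusted p = 0.0492). Its groups did not overlap, but it passed in only 1 of the 8 fits without 1 tumour, with an adjusted p of up to 0.123 in the others, and its adjusted p was 0.0532 with the replicate block.

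**Figure D3:**
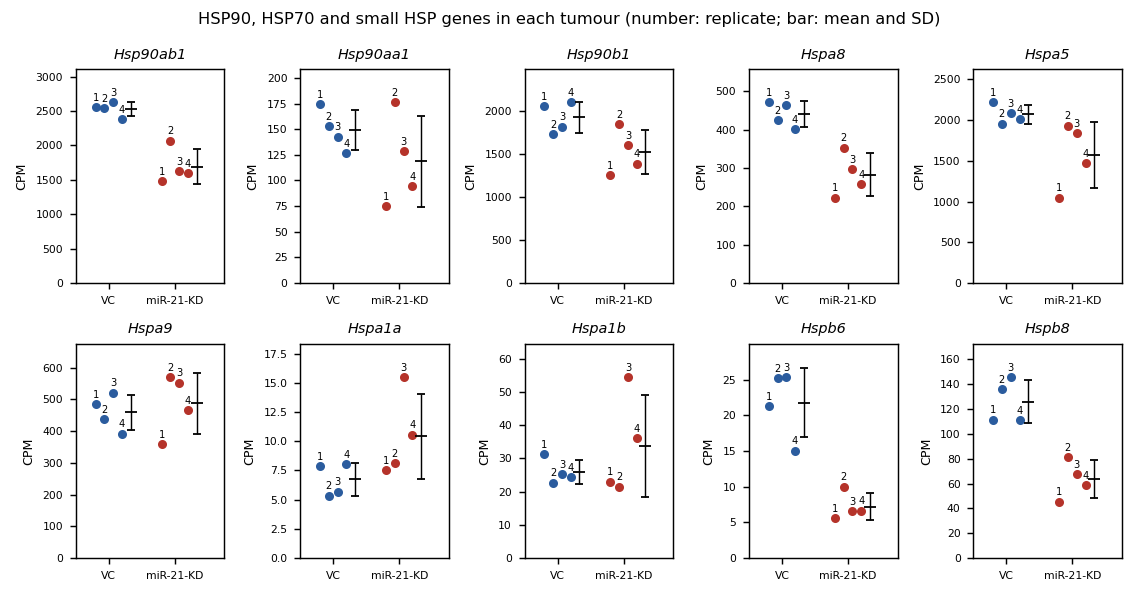
CPM of 10 HSP90, HSP70 and small HSP genes in each tumour (y axes from 0), with VC tumours in blue, miR-21-KD tumours in red, numbers for replicates and bars for the group mean and SD. The groups are apart for Hsp90ab1, Hspa8, Hspa5, Hspb6 and Hspb8, and they overlap for Hsp90aa1, Hsp90b1, Hspa9, Hspa1a and Hspa1b.

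Among the 11 HSP70 genes Hspa8, the constitutive HSP70 of the cytosol, was lower, and the stress-inducible pair Hspa1a and Hspa1b did not pass. Hspa8 was at 472, 425, 463 and 401 CPM in VC and 222, 353, 297 and 259 CPM in miR-21-KD tumours (-0.64 ± 0.15, adjusted p = 0.0128). The groups did not overlap, and its adjusted p was at most 0.0412 in the 8 fits without 1 tumour. Hspa1a was at 7.89, 5.35, 5.67 and 8.01 CPM in VC and 7.52, 8.10, 15.5 and 10.6 CPM in miR-21-KD tumours (0.63 ± 0.27, adjusted p = 0.0869), and Hspa1b at 31.3, 22.7, 25.3 and 24.4 CPM and 23.0, 21.5, 54.5 and 36.0 CPM (0.38 ± 0.29, adjusted p = 0.312). These 2 genes are near-identical copies that share 66.3% and 62.3% of their 50-base stretches with other genes. With their counts summed, the values were 39.2, 28.1, 31.0 and 32.5 CPM in VC and 30.6, 29.6, 70.0 and 46.6 CPM in miR-21-KD tumours (log2 fold change 0.44 ± 0.27, adjusted p = 0.223). Only miR-21-KD replicates 3 and 4 stood above the VC tumours. Of the 50-base stretches of Hspa8, 39.4% occur in other genes, so that part of its reads may be uncertain too.

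Hspa12a, a distant HSP70 relative, was the one HSP70 member called higher, at 2.88, 0.957, 1.02 and 2.21 CPM in VC and 7.68, 2.99, 2.84 and 5.40 CPM in miR-21-KD tumours (1.41 ± 0.47, adjusted p = 0.0413). Its groups overlapped, since miR-21-KD replicate 3 was below VC replicate 1, and the adjusted p was 0.0527 to 0.107 without VC replicate 2, 3 or 4 or miR-21-KD replicate 1 or 4. Hspa2, best known from testis (0.55, adjusted p = 0.0708), Hspa12b (0.18, adjusted p = 0.451), Hspa1l (0.01, adjusted p = 0.981) and Hspa14, which acts on ribosomes (-0.27, adjusted p = 0.119), did not pass. Without miR-21-KD replicate 2, Hspa14 (adjusted p = 0.0119) was lower and Hspa2 (0.0119) higher. Of 15 tested HSP70 co-chaperones without a Dnaj symbol, 4 were lower and none higher, against 19.5% and 19.6% of all tested genes. Sec63, Hscb and Gak of this list also hold a J domain. Bag2, an exchange factor of HSP70, was at 34.2, 42.5, 43.1 and 30.9 CPM in VC and 8.41, 27.1, 19.2 and 13.9 CPM in miR-21-KD tumours (-1.14 ± 0.31, adjusted p = 0.0232), with no overlap. St13, which stabilises HSP70 bound to its substrate (-0.32, adjusted p = 0.0262), and Grpel1, the exchange factor of mitochondrial HSP70 (-0.28, adjusted p = 0.0360), were lower too. In the fits without 1 tumour Bag2 passed in 5 of 8, St13 in 3 and Grpel1 in 2, with adjusted p of up to 0.0671, 0.0706 and 0.0917. At most 1 gene of this list was lower without VC replicate 2 or 3 or miR-21-KD replicate 1, 3 or 4, and 2 were without VC replicate 1.

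The HSP110 genes encode exchange factors of HSP70, and 1 of 3 was lower. Hspa4l was at 57.1, 51.6, 58.6 and 38.7 CPM in VC and 23.4, 44.5, 36.1 and 31.3 CPM in miR-21-KD tumours (-0.61 ± 0.20, adjusted p = 0.0441), and miR-21-KD replicate 2 lay above VC replicate 4. Its adjusted p was 0.0780 to 0.112 without VC replicate 1, 2 or 3 or miR-21-KD replicate 1, 3 or 4. Hsph1 was at 149.8, 135, 147 and 124 CPM and 82.4, 153, 110.3 and 96.1 CPM (-0.33 ± 0.18, adjusted p = 0.166), with an adjusted p of 0.00920 without miR-21-KD replicate 2. Hspa4 differed least of the 3 (-0.14, adjusted p = 0.301).

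Of the 13 members of the ER, only Dnajc3 passed the threshold. Dnajc3 (P58IPK), a J-domain partner of BiP in the ER lumen, was at 268, 277, 264 and 270.3 CPM in VC and 207, 211, 206 and 205 CPM in miR-21-KD tumours (-0.38 ± 0.07, adjusted p = 0.00709). Both groups were tight and well apart, with miR-21-KD replicate 2 close to the other miR-21-KD tumours. Hspa5 (BiP), the HSP70 of the ER, was at 2222, 1957, 2088 and 2010.4 CPM and 1049.5, 1930.2, 1842 and 1470.0 CPM (-0.40 ± 0.19, adjusted p = 0.122). Its groups did not overlap, although the spread among miR-21-KD tumours was wide and replicate 2 lay just under the VC tumours. Hsp90b1 (GRP94), the HSP90 of the ER, was at 2060.4, 1738, 1823 and 2109 CPM and 1260.2, 1847, 1604 and 1392 CPM (-0.34 ± 0.15, adjusted p = 0.0916), with overlap. Its adjusted p was 0.0244 without miR-21-KD replicate 2. Hspa13, an HSP70 relative of the ER (-0.25, adjusted p = 0.121), and the 9 other ER members, the stress-induced Dnajb9 and Dnajb11 among them, did not pass with all tumours. Without miR-21-KD replicate 2, Hspa13 (0.0358) and the disulphide reductase Dnajc10 (0.0444) were lower. Without miR-21-KD replicate 1 Dnajc18 was lower (0.0312), and without VC replicate 4 Dnajb11 was higher (0.0430). The median log2 fold change of the 13 was -0.16.

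Dnajc3, Hspa5 and Hsp90b1 were the only members of the 69 with the ER stress response element (CCAAT, 9 bases of any kind, CCACG, on either strand) in the promoter window, which is 4.35% of members against 0.137% of genes. They are shown because they share this element of the unfolded protein response and the same direction of change, although only 1 of the 3 passed. The 250 bases before each RefSeq start in GRCm38.p6 are at chr14:118937682-118937931 (plus strand), chr2:34771840-34772089 (plus) and chr10:86705445-86705694 (minus), with the element in capitals.

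Dnajc3: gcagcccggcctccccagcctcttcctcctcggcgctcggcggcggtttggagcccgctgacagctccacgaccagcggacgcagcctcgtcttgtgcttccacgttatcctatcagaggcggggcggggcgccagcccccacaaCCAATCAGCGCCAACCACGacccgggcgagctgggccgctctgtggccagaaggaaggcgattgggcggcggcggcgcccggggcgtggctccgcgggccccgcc

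Hspa5: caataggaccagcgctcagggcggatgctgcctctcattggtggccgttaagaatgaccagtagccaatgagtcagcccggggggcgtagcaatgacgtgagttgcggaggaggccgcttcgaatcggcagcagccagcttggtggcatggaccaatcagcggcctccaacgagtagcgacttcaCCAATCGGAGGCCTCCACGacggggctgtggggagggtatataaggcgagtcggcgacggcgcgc

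Hsp90b1: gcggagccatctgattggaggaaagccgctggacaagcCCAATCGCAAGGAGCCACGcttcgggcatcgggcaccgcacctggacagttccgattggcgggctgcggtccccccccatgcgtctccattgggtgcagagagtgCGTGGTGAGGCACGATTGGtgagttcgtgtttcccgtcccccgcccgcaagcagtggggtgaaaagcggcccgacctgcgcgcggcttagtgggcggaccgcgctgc

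Hsp90b1 held 2 copies, 212 and 107 bases before the start, the nearer one on the opposite strand. The element began 105 bases before the start of Dnajc3 and 65 before that of Hspa5. Log2 fold changes of these 3 genes were -0.38, -0.40 and -0.34.

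The small HSP genes held the member with the smallest adjusted p. Hspb6 (HSP20), abundant in muscle, was at 21.3, 25.2, 25.4 and 15 CPM in VC and 5.58, 9.98, 6.57 and 6.65 CPM in miR-21-KD tumours (-1.59 ± 0.23, adjusted p = 0.00570). Hspb8, which with Bag3 takes unfolded proteins to autophagy, was at 111, 136, 146 and 111 CPM and 45.3, 81.5, 67.8 and 58.8 CPM (-0.99 ± 0.18, adjusted p = 0.00739). All miR-21-KD tumours were below all VC tumours for both genes, and both passed in all 8 fits without 1 tumour. Hspb1 (HSP27) did not pass (-0.36, adjusted p = 0.173), and 50.1% of its 50-base stretches occur elsewhere. The muscle small HSPs Hspb7 (0.70, adjusted p = 0.174) and Hspb2 (0.23, adjusted p = 0.726) were near the floor, at up to 1.70 and 1.62 CPM, and Hspb7 had an adjusted p of 0.0439 without miR-21-KD replicate 2.

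The lens crystallins are small HSPs under other names, and both were higher. Cryab was at 19.6, 7.26, 11.9 and 15.4 CPM in VC and 35.3, 20.3, 45.6 and 33.7 CPM in miR-21-KD tumours (1.31 ± 0.33, adjusted p = 0.0166). Cryaa was at 1.99, 0.239, 1.34 and 0.0817 CPM and 8.33, 9.59, 11.9 and 9.47 CPM (3.40 ± 0.66, adjusted p = 0.00854), with VC replicates 2 and 4 at or under the level that a count of 0 allows. Neither gene's groups overlapped. The adjusted p of Cryab was 0.0522 without VC replicate 3, and Cryaa passed in all 8 such fits. Small HSP genes thus differed in both directions, with Hspb6 and Hspb8 lower and the crystallins higher. Smooth muscle markers, given here because muscle holds several small HSPs, summed to 302 to 413 CPM in VC and 428 to 480.2 CPM in miR-21-KD tumours, with 4 of 6 higher. Skeletal muscle markers summed to 18.5 to 30.0 CPM and 33.1 to 52.7 CPM, with Des higher and Myh1 lower among 4 tested of 12 (Myh1 not without VC replicate 3 or miR-21-KD replicate 1 or 3, with adjusted p of up to 0.0592), and Ckm had at most 3 counts in a tumour. Their part in the small HSP values was not tested.

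J-domain proteins bring HSP70s to their substrates. None of the 4 Dnaja genes, which encode general partners of HSP70, passed, and their log2 fold changes lay between -0.10 and 0.25. Of 10 Dnajb genes 2 were higher and none lower, against 19.6% higher and 19.5% lower over all tested genes. Dnajb5 was at 9.96, 9.33, 8.35 and 12.2 CPM in VC and 18.1, 13.4, 14.9 and 16.8 CPM in miR-21-KD tumours (0.66 ± 0.16, adjusted p = 0.0146). Dnajb13, a protein of the axoneme of sperm and cilia, was at 0.885, 0.399, 0.867 and 0.736 CPM and 3.39, 1.49, 2.11 and 2.11 CPM (1.64 ± 0.35, adjusted p = 0.0109). Both genes had all miR-21-KD tumours above all VC tumours and passed in all 8 fits without 1 tumour. Dnajb13 is a low gene, with 11.2% of its exon bases overlapped by Ucp2 on the opposite strand. Markers of motile cilia and testis summed to 3.83 to 8.34 CPM in VC and 6.60 to 12.7 CPM in miR-21-KD tumours, with 2 of 4 tested higher (1 without VC replicate 3), and their part was not tested. Both that were higher are germ cell genes, Sycp3 (1.13, adjusted p = 0.0154) and Ddx4 (1.85, adjusted p = 0.0179), while the cilium genes Ccdc39 (0.09, adjusted p = 0.810) and Rsph1 (-0.17, adjusted p = 0.810) did not pass. Dnajb6, a suppressor of protein aggregation, had no overlap either (0.31, adjusted p = 0.0545), and it passed with the replicate block (adjusted p = 0.0478) and without miR-21-KD replicate 2 (0.0455).

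The Dnajc family is the most varied, and 8 of 26 tested genes were lower and 1 higher, against 19.5% and 19.6% of all tested genes. Dnajc12, a co-chaperone of the aromatic amino acid hydroxylases, was higher, at 2.88, 2.31, 2.21 and 5.15 CPM in VC and 12.5, 6.05, 9.41 and 17.2 CPM in miR-21-KD tumours (1.85 ± 0.39, adjusted p = 0.0105). This was the largest rise among the tested members. Dnajc22, a membrane protein with a J domain, had the largest decrease, from 19.5, 27.0, 24.0 and 17.6 CPM in VC to 1.62, 12.7, 6.01 and 4.77 CPM in miR-21-KD tumours (-1.81 ± 0.49, adjusted p = 0.0221). Its adjusted p was 0.0561 to 0.0644 without VC replicate 2 or 3 or miR-21-KD replicate 3 or 4. Neither gene's groups overlapped, and the 4 miR-21-KD tumours differed widely among themselves for both.

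Dnajc9 and Dnajc27 were lower in all 8 fits without 1 tumour. Dnajc9, a nuclear chaperone that joins HSP70 to histones, was at 42.6, 46.2, 46.7 and 56.6 CPM in VC and 28.3, 34.0, 21.4 and 32.9 CPM in miR-21-KD tumours (-0.72 ± 0.16, adjusted p = 0.0116). Dnajc27, a small GTPase of the Rab type with a J domain, was at 14.6, 21, 15.9 and 18.5 CPM and 11.3, 11.5, 12 and 10.3 CPM (-0.63 ± 0.14, adjusted p = 0.0122). Both genes had their groups apart, with every VC tumour above every miR-21-KD tumour. The rule for named genes stops at 5 per direction in a family, so the other 3 Dnajc genes called lower are named after their values were seen. They are Dnajc7, which binds HSP70 and HSP90 (-0.32, adjusted p = 0.0242), the ribosome-bound Dnajc2, which pairs with Hspa14 (-0.31, adjusted p = 0.0333), and Dnajc17 (-0.49, adjusted p = 0.0421). These 3 lost the call in 4, 6 and 6 of the 8 fits without 1 tumour, with adjusted p of up to 0.0677, 0.0869 and 0.113. Of the vesicle members, Dnajc5 of synaptic vesicles (0.26, adjusted p = 0.0650) and Dnajc13 of endosomes (0.29, adjusted p = 0.0754) passed with the replicate block, at adjusted p of 0.0429 and 0.0200, and both were higher. Dnajc5 also passed without miR-21-KD replicate 4 (0.0384) and Dnajc13 without VC replicate 1 (0.0431).

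**Figure D4:**
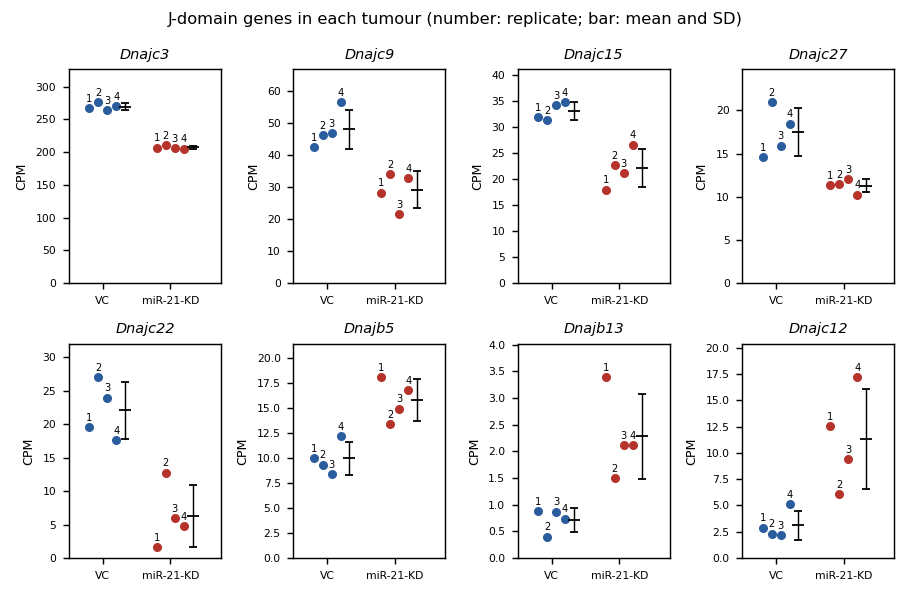
CPM of 8 J-domain genes in each tumour (y axes from 0), with VC tumours in blue, miR-21-KD tumours in red, numbers for replicates and bars for the group mean and SD. In all 8 panels the groups do not overlap, below VC for the 5 genes in which miR-21-KD was lower and above it for Dnajb5, Dnajb13 and Dnajc12.

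Of the 3 genes with other HSP names, Hspb11, which despite its name encodes a component of intraflagellar transport, was lower, at 16.9, 20.5, 19.2 and 20.6 CPM in VC and 9.46, 15, 15.7 and 12.1 CPM in miR-21-KD tumours (-0.56 ± 0.17, adjusted p = 0.0319). It was named after its values were seen. The groups did not overlap, and the adjusted p was 0.0532 to 0.0821 without VC replicate 2, 3 or 4 or miR-21-KD replicate 1 or 4. The exchange factor Hspbp1 (-0.03) and Hspbap1 (0.21) did not pass.

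Of 4 tested genes for heat shock factors and their regulator Hsbp1, 1 was lower and 1 higher. Hsf1, the main factor of the heat shock response, was at 45.2, 52.2, 55.7 and 51.4 CPM in VC and 37.8, 45.7, 39.0 and 40.2 CPM in miR-21-KD tumours (-0.33 ± 0.10, adjusted p = 0.0275), with overlap between VC replicate 1 and miR-21-KD replicate 2. It passed in 3 of the 8 fits without 1 tumour, with an adjusted p of up to 0.0827. Hsf4, the factor of the lens, was at 1.47, 0.638, 1.34 and 1.47 CPM and 4.53, 2.04, 3.73 and 4.70 CPM (1.60 ± 0.36, adjusted p = 0.0120), with no overlap, and it passed in all 8 fits. Immediate early genes, which respond to many kinds of stress, summed to 411 to 569.7 CPM in VC and 521 to 792 CPM in miR-21-KD tumours, with 4 of 8 higher, and 2 without VC replicate 2, 3 or 4 or miR-21-KD replicate 3 or 4.

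Among miR-21-KD tumours, replicate 2 was the highest for 14 of the 18 members called lower and for all 8 CCT genes. The median log2 ratio of the 8 CCT genes to their VC means was -0.83, -0.07, -0.35 and -0.53 in miR-21-KD replicates 1 to 4, against -0.06 to 0.04 in VC tumours. The markers of proliferation placed these 4 tumours in the same order and summed to 516, 1416, 706 and 586 CPM in miR-21-KD replicates 1 to 4 and to 1362 to 1917 CPM in VC tumours. Leukocyte markers summed to 901 to 1677 CPM in VC and to 3059, 1689.95, 2302 and 2587 CPM in miR-21-KD replicates 1 to 4. Fibroblast markers summed to 3126 to 8188 CPM and to 23568, 10643, 12519 and 13813 CPM. Both of these lists placed the 4 miR-21-KD tumours in exactly the reverse order. The part of all these markers, proliferation included, in the chaperone values was not tested. Without replicate 2, 7 members were higher and 28 lower, against 22.5% and 24.3% of all tested genes. Of the 18 members lower with all tumours, 17 remained so, Hspe1 being the exception. The 11 that joined them were Cct2, Cct4, Cct5, Cct6a, Tcp1, Hsp90aa1, Hsp90b1, Hsph1, Hspa13, Hspa14 and Dnajc10.

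**Figure D5:**
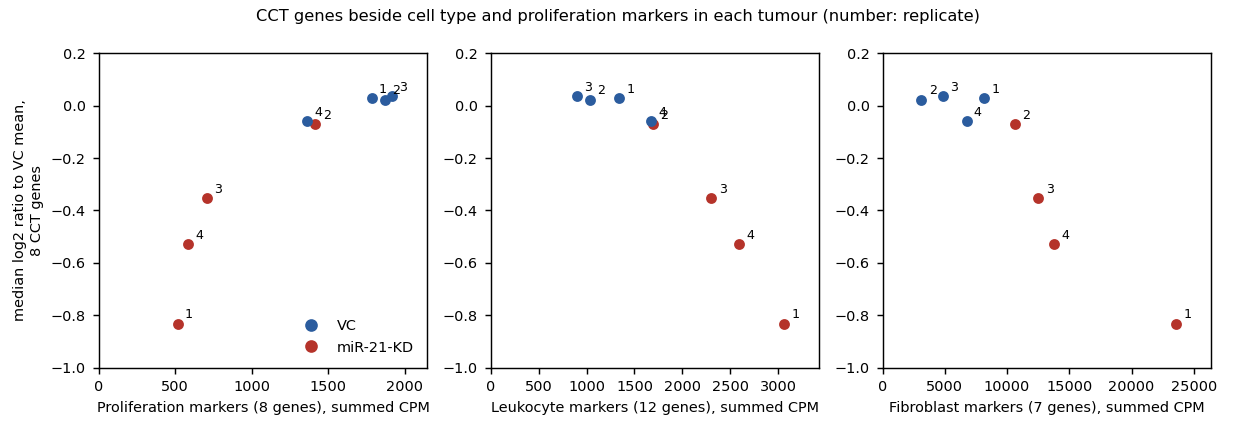
Median log2 ratio of the 8 CCT genes to their VC means in each tumour (y axis) against the summed CPM of proliferation, leukocyte and fibroblast markers (x axes), with VC tumours in blue, miR-21-KD tumours in red and numbers for replicates. VC tumours and miR-21-KD replicate 2 lie between -0.07 and 0.04, and miR-21-KD replicate 1 lies at -0.83 with the lowest proliferation sum (516 CPM) and the highest leukocyte and fibroblast sums.

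Of the 22 members called, 11 passed in every fit without 1 tumour and in every alternative that tested them, namely Hspa8, Hsp90ab1, Hspb6, Hspb8, Dnajc3, Dnajc9, Dnajc15 and Dnajc27 among the lower and Dnajb5, Dnajb13 and Dnajc12 among the higher. The 9 untested members had few reads. Dnajc5g and Dnajb8 had none in any tumour, and the highest counts in a tumour were 11 for Hspb9, 7 for Dnajb3 and Cct6b, 3 for Hspb3 and Dnajb7 and 1 for Dnajc5b and Cct8l1. Sequence shared with other genes also touched Hspa1l (71.4% of 50-base stretches), Dnaja4 (42.7%), Hspd1 (42.1%), Hspb2 (24.4%, with Cryab) and Hspe1 (22.8%). The strand setting of the counting is not given in the sources used here, so reads of such genes and of overlapping neighbours cannot be told apart.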

How the data were processed

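RNA sequencing of 8 whole tumours, 4 VC and 4 miR-21-KD, was analysed. Per gene, the authors deposited the raw count of reads under its Entrez identifier, not normalized, and all 8 columns were used. The submitters' processing notes name Subread, featureCounts, edgeR, limma and mm10, without versions, and the strand setting is not given in the sources used here. Symbols matched 25275 of 27179 identifiers, and lengths and overlaps came from GENCODE on GRCm38. Shared sequence was the share of a gene's 50-base stretches found in transcripts of other genes.

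Counts were tested in R 4.3.3 with edgeR 4.0.16 (filterByExpr with minimum count 10, TMM scaling, robust quasi-likelihood test, Benjamini-Hochberg adjustment, threshold 0.05). Totals of 12134849 to 13592695 counts per tumour make counting error small for all but the low genes. Alternatives were DESeq2 1.42.0, voom of limma 3.58.1, scaling by library size or upper quartile, other filters, a replicate block and each tumour left out in turn. Tumours of 1 group differed by more than sampling noise in every pair. Deviations of tumours with the same replicate number correlated at 0.272, 0.421, 0.175 and 0.376, a pairing seen in the data only, so the block is an alternative. A simulation with 14251 genes held 100 genes changed 2-fold, of which the test detected 63.0%. It also held 97 genes changed 4-fold, with 92.8% detected. Far fewer genes changed there than the 39.1% called in these tumours. The adjustment depends on that share, so these rates do not give the detection rate of this comparison.

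Members and lists were chosen with earlier results of these data known. Named were all tested HSP and CCT members, up to 5 called members per direction in each J-domain family, the 5 largest changes and up to 3 called genes per direction of each partner list.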

Additional observations from a re-analysis of the deposited data

Results flagged for a closer look

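In 2 of 80 groups of 4 tumours examined, over 40 named members, 1 tumour stood far from the others, where chance flags about 1 in 20 groups. Cct2, a subunit of the cytosolic chaperonin, was at 306.5 CPM in VC replicate 4 and at 355 to 363 CPM in the other VC tumours. The exchange factor Hspa4 was at 281 CPM in the same tumour, against 314 to 318 CPM in the others. Without VC replicate 4 neither gene passed the threshold, as with all tumours.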

How the results depend on the processing

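Higher members numbered 4, with 8 by DESeq2, 7 with the replicate block and 3 to 7 with 1 tumour left out. Lower members numbered 18, with 23 by DESeq2, 20 by limma-voom and 8 to 28 with 1 tumour left out. The lowest count came without VC replicate 3 and the highest without miR-21-KD replicate 2. Lower CCT genes numbered 2, with 6 by DESeq2, 4 by limma-voom, 1 each with upper-quartile scaling, with no filter and with a minimum of 10 counts per tumour, 5 with the block and 0 to 7 with 1 tumour left out. Called genes over the whole table numbered 5626, and 2936 to 6840 with 1 tumour left out. The cause of these shifts was not tested. The replicate block added Cct2, Cct5, Tcp1, Dnajb6, Dnajc13 and Dnajc5 and changed no other call among members. Upper-quartile scaling ended the calls of Cct7, Dnajc17 and Hspe1 (adjusted p of 0.0508, 0.0517 and 0.0627), and testing without a filter those of Cct7 and Dnajc17 (0.0540 and 0.0573). The minimum of 10 counts ended those of Cct7, Dnajc17, Hspa4l and Hspe1 (0.0583, 0.0514, 0.0526 and 0.0611) and left Dnajb13 untested. As higher, this minimum added Dnajb6, Dnajc13 and Dnajc5, upper-quartile scaling Dnajb6 and Dnajc5, and DESeq2 Dnajb6, Dnajc13, Dnajc5 and Hspa2. As lower, DESeq2 added Cct2, Cct4, Cct5, Hsp90b1 and Tcp1, and limma-voom Cct2 and Cct5. No scaling moved the median of all genes by over 0.1.

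Genes near 0 changed sign in log2 fold change, none of them past the threshold. With 1 tumour left out, Cct8 ran from -0.14 to 0.018 (above 0 without miR-21-KD replicate 1), Hspa9 from -0.0036 (without miR-21-KD replicate 2) to 0.21, Hspb2 from -0.12 (without miR-21-KD replicate 1) to 0.70, and Hspa1l from -0.13 to 0.12 (below 0 without VC replicate 2 or 4 or miR-21-KD replicate 2 or 4). Hspa1l was also at -0.012 with library size scaling and -0.023 without a filter. With the counts of Hspa1a and Hspa1b summed, a setting chosen after seeing the data, the same 22 members were called.

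Depth limits the genes at a few CPM, and 4 tumours per group limit the detection of small changes. Some changes under 2-fold did pass, such as that of Pdcl with a log2 fold change of -0.37. The line cannot be told apart from the knockdown, since each line was 1 pool of clones, and the part of cell makeup was not tested.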
